A study of Mus musculus with 6 samples.

Results

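The transcripts described here are 10 genes of the hormone-producing cells of the gut, out of 54446 genes in the deposited count table. The genes were chosen by name, although earlier results of these data were known. They were the peptide hormone genes Nts, Gcg and Pyy, which are typical of the distal intestine, Gip and Cck, which are typical of the proximal intestine, Sct, Ghrl, Sst and Tac1, and Tph1, which encodes the enzyme that starts serotonin synthesis. The libraries were made from intestinal epithelium of mice aged 3 to 4 months, with 1 animal per library. Control mice (n = 3) carried Prkci flox/flox, that is, conditional alleles of the gene for an atypical protein kinase C. Knockout mice (n = 3) carried Prkci flox/flox and Villin-CRE, a transgene that puts the recombinase under the Villin promoter, which is active in intestinal epithelium. Both groups thus had the floxed alleles and only the knockouts had the recombinase, so the transgene and the loss of Prkci cannot be told apart. The sample titles name jejunum, whereas the series text describes segments of 10 cm from jejunum and ileum, and the labels call the cells enterocytes.

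Enteroendocrine cells are rare, scattered secretory cells of the intestinal epithelium. They sense nutrients in the lumen, store peptide hormones or serotonin in dense-core granules with chromogranins, and release them toward the blood and nearby nerves. They arise from crypt progenitors that pass through a Neurog3-positive state, and the hormone that a cell makes depends on its position along the gut and on its place between crypt and villus. Gip and Cck cells are most frequent in the duodenum and upper jejunum, while cells with neurotensin, glucagon-like peptides and peptide YY become more frequent toward the ileum and colon. In bulk libraries, fewer cells of a type and less RNA per cell cannot be told apart.

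Library totals ranged from 18972906 to 26687856 counts. Prkci stood at 44.0 to 46.9 counts per 1e6 counts (CPM) in the controls and 14.6 to 21.5 CPM in the knockouts, so the targeted transcript was lower in every knockout library. Knockout replicates 2 and 3 stood apart from the other libraries on the first principal component of all genes, which held 54.7% of the variance, and knockout replicate 1 stood apart on the second. Read counts of Xist and of the Y-linked gene Ddx3y went against the sex stated in the series description for 3 libraries, namely control replicates 2 and 3 and knockout replicate 3. Counts of Xist were 9, 12 and 31810 in the controls and 10, 23534 and 33757 in the knockouts, in order of replicate. Those of Ddx3y were 1246, 1068 and 1 in the controls and 1019, 0 and 0 in the knockouts. Knockout replicate 1 was thus the only knockout with Ddx3y reads and few Xist reads. RNA composition moved with genotype as well. Vim, a mesenchymal gene, stood at 2.48 to 2.75 counts per 1000 counts of the epithelial gene Krt8 in the controls and 3.92 to 5.62 in the knockouts. The noncoding genes Gm26917 and Gm42418 together held 2.16% to 2.91% of the counts in the controls and 4.89% to 5.91% in the knockouts. The part of these features in the results below was not tested.

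The 3 promoters shown here belong to Nts, Gip and Sct, whose transcripts were higher in every knockout library than in any control and were called by one of the methods used (below). Each is the 250 bases before the gene's start in RefSeq on GRCm38.p6, read 5′ to 3′ on the gene's own strand, with capitals marking E-boxes. An E-box is the letter pattern CANNTG, to which basic helix-loop-helix factors such as those of enteroendocrine differentiation can bind. The windows are chr10:102490419-102490668 on the minus strand for Nts, chr11:96024295-96024544 on the plus strand for Gip and chr7:141279134-141279383 on the minus strand for Sct.
Nts: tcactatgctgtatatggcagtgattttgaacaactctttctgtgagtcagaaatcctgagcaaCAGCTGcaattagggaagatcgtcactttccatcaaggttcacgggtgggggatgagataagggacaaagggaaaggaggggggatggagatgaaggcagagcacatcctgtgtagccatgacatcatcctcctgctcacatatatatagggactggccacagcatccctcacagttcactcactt
Gip: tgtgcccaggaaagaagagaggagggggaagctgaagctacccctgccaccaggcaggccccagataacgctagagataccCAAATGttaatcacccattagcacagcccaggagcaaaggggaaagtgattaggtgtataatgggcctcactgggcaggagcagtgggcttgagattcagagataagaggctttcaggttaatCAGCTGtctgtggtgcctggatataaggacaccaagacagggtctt
Sct: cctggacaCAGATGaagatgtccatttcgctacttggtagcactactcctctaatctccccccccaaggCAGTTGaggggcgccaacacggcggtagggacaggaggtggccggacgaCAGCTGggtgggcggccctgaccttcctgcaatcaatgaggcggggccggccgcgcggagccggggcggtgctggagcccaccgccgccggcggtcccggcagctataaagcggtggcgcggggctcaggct

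Nts had 1 E-box, beginning 186 bases before the start. Gip had 2, at 169 and 46 bases, and Sct had 3, at 242, 181 and 132 bases. The letters CAGCTG, picked after the windows were seen, occurred in each of these 3 windows, and also in that of Ghrl, 233 bases before its start. Their share over all promoters was not counted, so their occurrence says nothing about the transcript levels. Over both strands, an E-box was found in 9 of the 10 genes' windows, Tph1 being the exception, and in 66.2% of 32817 RefSeq promoters of the same length. The GATA-type letters AGATAA were found in 4 windows (Gip, Cck, Nts and Tac1) and in 10.0% of promoters. The letters TGACNTCA, of the cyclic AMP response type, were found in Nts and Sst, and in 7.5% of promoters. The letters TATAAA were found in Gcg and Sct, and in 12.4% of promoters. These patterns do not overlap one another in the windows printed. The RefSeq start of Nts lies 68 bases inside the gene end given by the count table. A match describes letters and not a bound site, and no window here was measured for binding.

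Hormone transcripts tended to be higher in the knockout libraries, but no gene of the 10 passed the main test. The edgeR quasi-likelihood test gave 0 of 10 genes at an adjusted p below 0.05, where 8 of 15068 genes (0.0531%) were called higher and 1 (0.00664%) lower. At an unadjusted p below 0.05, 4 genes were higher (Nts, Gip, Cck and Sct), against 9.32% of all genes, and 0 were lower, against 7.09%. In 4 genes (Nts, Gip, Sct and Ghrl) every knockout library exceeded every control, which was so for 10.0% of all genes, and in 0 genes was every knockout below every control, against 11.7%. Its log2 fold change was above 0 in 10 of 10 genes, against 50.7% of all genes, and its median was 0.56, against 0.01 over all genes. Scaling by library totals turned Sst to −0.07, and it moved the median of all genes to −0.10 and that of the 10 hormone genes to 0.45. DESeq2 called 3 of the 10 genes higher (Nts, Gip and Sct), against 3.60% of all genes, and limma-voom called 0, against 0.0265%. Without knockout replicate 1, edgeR called 5 of the 10 genes higher (Nts, Gcg, Gip, Sct and Tac1), but 10.0% of all genes were then called higher too. With the replicate number as a block, edgeR called 0 of the 10 genes, and 0 of all genes, and the 4 genes at an unadjusted p below 0.05 were Nts, Gip, Sct and Tph1, so that Cck was lost and Tph1 gained. Over the alternatives that kept at least 2 libraries in each group, the adjusted p ranged from 0.00227 to 0.426 for Nts, 0.0241 to 0.458 for Gip, 0.0354 to 0.497 for Sct, 0.0287 to 0.947 for Gcg and 0.0130 to 0.692 for Tac1, and it was 0.098 or more for the other 5 genes.

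**Figure D1:**
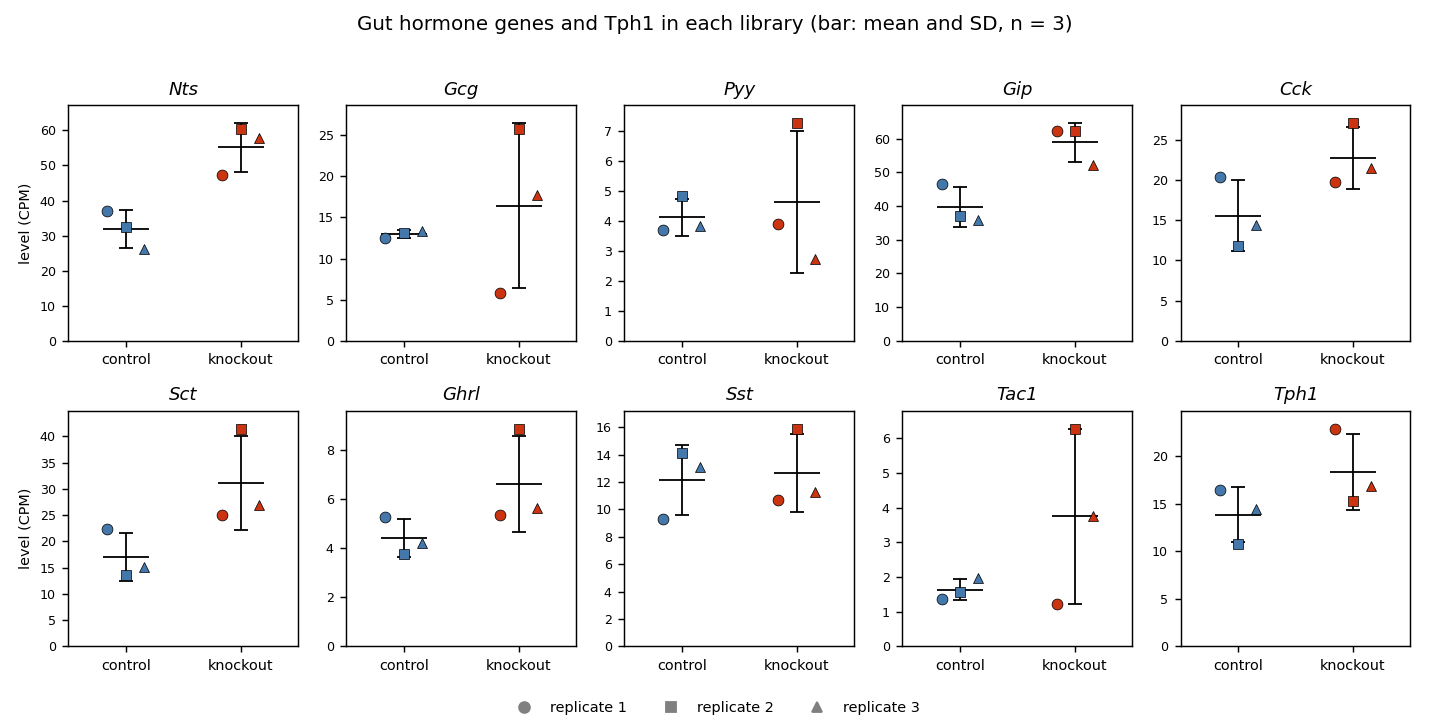
Level of each gene in CPM (vertical axes, each from 0) in the 3 control and 3 knockout libraries, with 1 point per library with its shape giving the replicate number, and the mean with SD as bars. Nts, Gip and Sct separate by group, Gcg spreads from 5.82 to 25.8 CPM among the knockouts, and the ranges of Sst overlap.

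Among the distal hormones, Nts was higher in every knockout library, while Gcg and Pyy had knockout libraries on both sides of the controls. Nts (ENSMUSG00000019890.4, chr10:102481756-102490486, minus strand) encodes neurotensin, a peptide released after fat intake. Its levels were 36.9, 32.5 and 26.2 CPM in control replicates 1 to 3 and 47.2, 60.4 and 57.8 CPM in knockout replicates 1 to 3. The lowest knockout lay 10.4 CPM above the highest control, so the groups did not overlap. The mean was 31.9 ± 5.39 CPM (SD, n = 3) in controls and 55.1 ± 6.96 CPM in knockouts. The ratio of summed counts, after division by the scaled totals used for CPM, was 1.75, with a 95% counting interval of 1.66 to 1.84. Its log2 fold change of 0.79 (SE 0.16) had an edgeR adjusted p of 0.117 and a DESeq2 adjusted p of 0.00227. Without knockout replicate 1 the log2 fold change was 0.89, and the edgeR adjusted p was 0.00811.

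Gcg (ENSMUSG00000000394.15, chr2:62474530-62483650, minus strand) encodes proglucagon, from which intestinal L cells cut glucagon-like peptides. The controls were nearly alike, at 12.5, 13.1 and 13.4 CPM, with a coefficient of variation of 3.5%. The knockouts stood at 5.82, 25.8 and 17.7 CPM, with a coefficient of variation of 61.2%. Knockout replicate 1 was thus below every control and knockout replicates 2 and 3 were above every control. In the edgeR fit the log2 fold change was 0.34 (SE 0.46, edgeR adjusted p 0.731). This value depended on single libraries, being 0.74 with an edgeR adjusted p of 0.0287 without knockout replicate 1 and −0.12 without knockout replicate 2.

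Pyy (ENSMUSG00000017311.15, chr11:102106676-102107832, minus strand) encodes peptide YY, an L-cell peptide that slows gut transit. Transcript levels were 3.70, 4.83 and 3.85 CPM in controls and 3.90, 7.28 and 2.72 CPM in the knockouts. Knockout replicate 2 was the highest of the 6 libraries and knockout replicate 3 the lowest, so the groups overlapped fully. The log2 fold change was 0.17 (SE 0.37, edgeR adjusted p 0.846), and it was −0.31 without knockout replicate 2. The counts behind it were 68 to 167 per library, and the counting interval of the knockout to control ratio, 0.947 to 1.31, included 1.

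Both proximal hormones had higher means in the knockouts, and Gip separated the groups. Gip (ENSMUSG00000014351.12, chr11:96024545-96030831, plus strand) encodes the incretin of K cells, which enhances insulin release after a meal. Its levels were 46.5, 36.9 and 35.8 CPM in controls and 62.1, 62.3 and 52.2 CPM in the knockouts. All 3 knockouts exceeded all 3 controls, by at least 5.68 CPM. The mean was 39.7 ± 5.88 CPM (SD, n = 3) in controls and 58.9 ± 5.78 CPM in knockouts. The log2 fold change of 0.57 (SE 0.14) had an edgeR adjusted p of 0.147 and a DESeq2 adjusted p of 0.0241. Without knockout replicate 1 the log2 fold change was 0.53, with an edgeR adjusted p of 0.0439.

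Cck (ENSMUSG00000032532.7, chr9:121489824-121495694, minus strand) encodes cholecystokinin, the I-cell peptide that stimulates the gallbladder and the exocrine pancreas. Transcript levels were 20.4, 11.8 and 14.4 CPM in controls and 19.7, 27.1 and 21.5 CPM in the knockouts. Control replicate 1 lay just above knockout replicate 1, and the other knockouts exceeded all controls. Its log2 fold change was 0.55 (SE 0.23), close in size to that of Gip, with an unadjusted p of 0.0462 and an edgeR adjusted p of 0.296.

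The distal and proximal hormones did not divide into a class that was higher and a class that was not. Within each library, the ratio of distal counts (Nts, Gcg and Pyy) to proximal counts (Gip and Cck) was 0.794, 1.04 and 0.865 in the controls and 0.696, 1.05 and 1.06 in the knockouts. The range of the controls lay within that of the knockouts, and knockout replicate 1 had the lowest ratio. The distal sum was 53.1, 50.5 and 43.4 CPM in controls and 57.0, 93.5 and 78.3 CPM in knockouts. The proximal sum was 66.9, 48.7 and 50.2 CPM in controls and 81.8, 89.4 and 73.6 CPM in knockouts. Both sums were thus higher in every knockout library, and the class sums moved together while the distal genes differed among themselves. Nts held most of the distal sum, and the ratio of Nts to Gcg counts was 2.94, 2.48 and 1.95 in controls and 8.12, 2.34 and 3.26 in knockouts. Against Gip, Gcg stood at 0.270, 0.356 and 0.375 in controls and 0.0937, 0.415 and 0.340 in knockouts. Knockout replicate 1 was therefore the library with little Gcg for its Gip and its Nts, and the other knockouts lay within or close to the control ratios. The ratio of Cck to Gip, the proximal pair, stayed between 0.318 and 0.439 in all 6 libraries. No test was made on these sums, because they are scores over chosen genes.

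**Figure D2:**
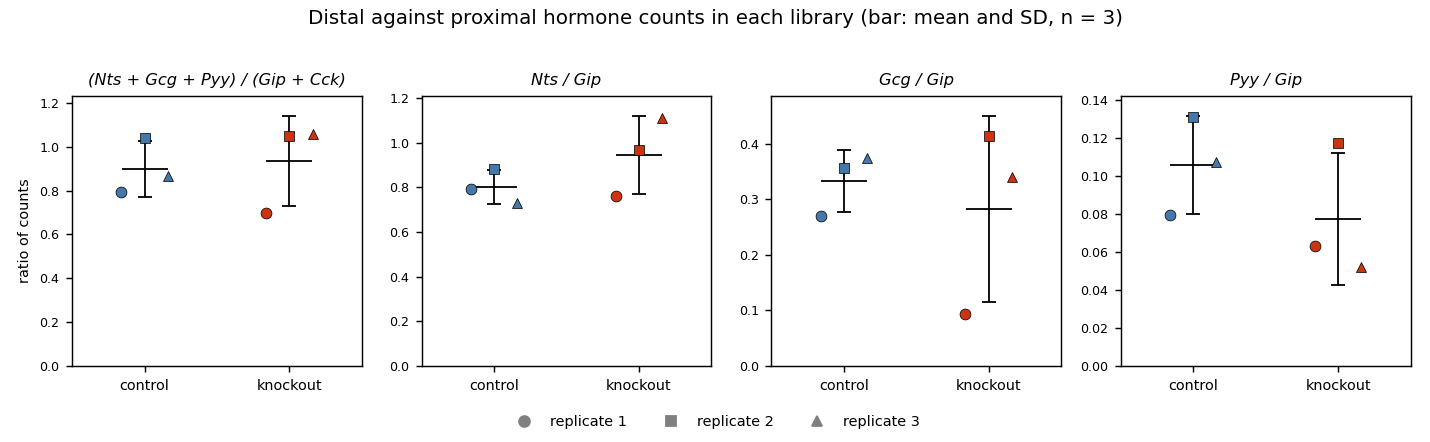
Ratios of read counts within each library (vertical axes, each from 0) for the distal over the proximal sum and for Nts, Gcg and Pyy over Gip, in 3 control and 3 knockout libraries, with 1 point per library and the mean with SD as bars. Distal over proximal ratios run from 0.794 to 1.04 in controls and from 0.696 to 1.06 in knockouts.

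Markers of intestinal segment were examined beside these hormones, whose levels differ along the gut. Of 12 proximal segment markers, 6 were higher and 1 lower at an unadjusted p below 0.05, against 9.32% and 7.09% of all genes, and 0 were called by edgeR. The other 5 had log2 fold changes below 0 too. The lower one, Fabp1, a fatty acid binding protein named after its values were seen, stood at 1589, 1348 and 1649 CPM in controls and 1247, 1042 and 911 CPM in knockouts (edgeR adjusted p 0.213). Pdx1, a transcription factor of the duodenum, stood at 1.67, 0.458 and 2.13 CPM in controls and 4.30, 23.4 and 27.0 CPM in knockouts, with an edgeR adjusted p of 0.120. Cybrd1, a ferric reductase of the duodenal brush border, stood at 1.72, 2.79 and 3.93 CPM in controls and 5.21, 223 and 127 CPM in knockouts, with an edgeR adjusted p of 0.127. Both were high in knockout replicates 2 and 3 and far lower in replicate 1. Lct, the most abundant proximal marker and the gene for lactase, stood at 3167, 2698 and 2451 CPM in controls and 1959, 1697 and 2678 CPM in knockouts. Of the distal segment markers, Slc51b, a bile acid exporter subunit, stood at 96.8, 81.1 and 105 CPM in controls and 84.6, 192 and 176 CPM in knockouts. The hormone genes varied in whether they were low in knockout replicate 1, as Pdx1 and Cybrd1 were. Gip was not, with 62.1 CPM there against 62.3 and 52.2 CPM in the others. Gcg was, with 5.82 CPM against 25.8 and 17.7 CPM, as was Tac1, with 1.21 CPM against 6.27 and 3.76 CPM. Nts, Cck, Sct, Ghrl and Sst also had their lowest knockout level there, by smaller margins, while Pyy and Tph1 did not. The part of segment position in the hormone levels was not tested.

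Of the hormones made along much of the small intestine, Sct was higher in every knockout library, Ghrl barely separated the groups and the ranges of Sst overlapped. Sct (ENSMUSG00000038580.13, chr7:141278330-141279133, minus strand) encodes secretin, which drives bicarbonate secretion by the pancreas. Its levels were 22.3, 13.7 and 15.1 CPM in controls and 25.1, 41.5 and 27.0 CPM in knockouts. The groups were 2.84 CPM apart at their nearest libraries, and knockout replicate 2 was the highest. The mean was 17.0 ± 4.61 CPM (SD, n = 3) in controls and 31.2 ± 8.95 CPM in knockouts. The log2 fold change of 0.87 (SE 0.26) had an edgeR adjusted p of 0.191 and a DESeq2 adjusted p of 0.0426. Without knockout replicate 1 the log2 fold change was 1.00, with an edgeR adjusted p of 0.0354.

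Ghrl (ENSMUSG00000064177.8, chr6:113716119-113719880, minus strand) encodes ghrelin, a peptide that stimulates appetite and is made mostly in the stomach. Transcript levels were 5.28, 3.79 and 4.23 CPM in controls and 5.36, 8.89 and 5.65 CPM in knockouts. Only 0.0828 CPM parted the groups, and with library totals in place of the scaled totals the groups overlapped. The log2 fold change was 0.58 (SE 0.26, edgeR adjusted p 0.320). Gm26982 and Gm44033 overlap it on the opposite strand, with 48 to 72 and 11 to 24 counts per library, and reads of these genes cannot be told apart, because the sources used here give no strand setting for the counting.

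Sst (ENSMUSG00000004366.4, chr16:23889573-23890958, minus strand) encodes somatostatin, the D-cell peptide that restrains release of other hormones. Its levels were 9.28, 14.1 and 13.1 CPM in controls and 10.7, 15.9 and 11.3 CPM in knockouts. Control replicate 1 was the lowest library and knockout replicate 2 the highest, and the other 4 were mixed. Between groups the log2 fold change was 0.05 (SE 0.23, edgeR adjusted p 0.921). It was −0.09 without control replicate 1 and −0.13 without knockout replicate 2.

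Tac1 and Tph1, both expressed by serotonin-producing enterochromaffin cells, differed in how the knockouts spread. Tac1 (ENSMUSG00000061762.12, chr6:7554879-7565834, plus strand) encodes substance P and neurokinin A. Transcript levels were 1.36, 1.58 and 1.97 CPM in controls and 1.21, 6.27 and 3.76 CPM in knockouts. Knockout replicate 1 was below every control, and knockout replicates 2 and 3 were above every control, the same order as for Gcg. The log2 fold change of 1.20 (SE 0.54) was the highest of the 10 genes, with an edgeR adjusted p of 0.326. Without knockout replicate 1 it was 1.61, with an edgeR adjusted p of 0.0130. It was also the least abundant of the 10 genes, with 24 to 144 counts per library and a counting interval of 1.89 to 2.96 around a scaled ratio of summed counts of 2.36.

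Tph1 (ENSMUSG00000040046.14, chr7:46644641-46672537, minus strand) stood at 16.4, 10.8 and 14.4 CPM in controls and 22.9, 15.3 and 16.9 CPM in knockouts. Here knockout replicate 1 was the highest library, and knockout replicate 2 lay below control replicate 1, so the groups overlapped. Its log2 fold change was 0.40 (SE 0.22, edgeR adjusted p 0.394). Mast cells also express Tph1, and their proteases Mcpt1 and Mcpt2 were highest in knockout replicate 1 too. Mcpt1 stood at 1.94, 1.00 and 2.26 CPM in controls and 6.37, 1.09 and 3.68 CPM in knockouts. The 12 mast cell markers summed to 32.6 to 40.3 CPM in controls and 13.1 to 33.2 CPM in knockouts, and most of this was Kit, which other cells of the gut wall also express. Without Kit, the other 11 summed to 1.54 to 3.81 CPM in controls and 1.96 to 9.31 CPM in knockouts, and Tpsab1, a mast cell tryptase, was at 0 counts in every library. The part of mast cells in the Tph1 level was not tested.

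Of 8 tested genes that make, carry or break down serotonin and histamine, 1 was higher and 3 lower at an unadjusted p below 0.05. Over all genes these shares were 9.32% and 7.09%, and edgeR called 0 of the 8. Maob, a monoamine oxidase, stood at 115, 141 and 190 CPM in controls and 44.7, 58.1 and 50.6 CPM in knockouts. Every knockout was below every control, and the log2 fold change was −1.54 (SE 0.20, edgeR adjusted p 0.0719, DESeq2 adjusted p 1.07e-08, and up to 0.399 over the alternatives that kept at least 2 libraries in each group). Qdpr, which regenerates the tetrahydrobiopterin cofactor of tryptophan hydroxylase, stood at 41.0, 53.0 and 52.0 CPM in controls and 28.8, 27.1 and 29.4 CPM in knockouts. It too separated the groups, with a log2 fold change of −0.78 (SE 0.13), an edgeR adjusted p of 0.0950 and a DESeq2 adjusted p of 0.000111 (up to 0.412 over these alternatives). Gch1, the first enzyme of cofactor synthesis, named after its values were seen, went the other way, at a mean of 29.8 ± 4.73 CPM (SD, n = 3) in controls and 50.0 ± 2.79 CPM in knockouts (edgeR adjusted p 0.110). These enzymes are expressed widely in the epithelium, so their counts are not those of enterochromaffin cells alone.

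Chromogranin transcripts, which mark granules of nearly all enteroendocrine cells, were also higher in every knockout library than in any control, though they did not pass the main test. Chga stood at 44.9, 39.3 and 40.5 CPM in controls and 50.9, 60.0 and 51.5 CPM in knockouts, and Chgb at 102, 87.8 and 99.8 CPM in controls and 127, 188 and 142 CPM in knockouts. The log2 fold changes were 0.38 and 0.66, with edgeR adjusted p-values of 0.187 and 0.147. Each hormone was then expressed per 1000 counts of Chga and Chgb of the same library. On that scale the groups overlapped for each of the 10 genes. Nts stood at 250, 256 and 186 in controls and 265, 244 and 298 in knockouts, a ratio of means of 1.16. Gip stood at 316, 290 and 255 in controls and 348, 252 and 269 in knockouts, a ratio of 1.01. Sct stood at 151, 108 and 108 in controls and 141, 167 and 139 in knockouts, a ratio of 1.22. The differences in these 3 genes were thus smaller beside the chromogranins than in CPM. With the whole granule list as denominator they were larger again. The log2 ratio moved from 0.22 to 0.51 for Nts, from 0.01 to 0.27 for Gip and from 0.29 to 0.59 for Sct. Of the 23 tested genes of that list, 18 had log2 fold changes above 0 and 5 below. Its sum includes genes with lower means in knockouts, such as Pam (68.7 CPM in controls, 61 CPM in knockouts) and Vamp2 (35.8 and 29.4 CPM). Both were named after their values were seen. Per 1000 counts of Chga and Chgb, Cck, at a ratio of 0.991, and Ghrl, at 0.992, had the same mean in both groups to within their spread. Sst had the lowest ratio, 0.682, from 63.0, 111 and 93.1 in controls and 59.9, 64.2 and 58.0 in knockouts. Pyy stood at a ratio of 0.721, Gcg at 0.804, Tph1 at 0.928 and Tac1 at 1.44, each with knockout libraries on both sides of a control. Exact two-sided permutation tests gave p-values of 0.2 to 1, and 0.75 to 1 after Benjamini-Hochberg adjustment over the 10 comparisons. With 3 against 3 libraries, such a test cannot give a p below 0.1.

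**Figure D3:**
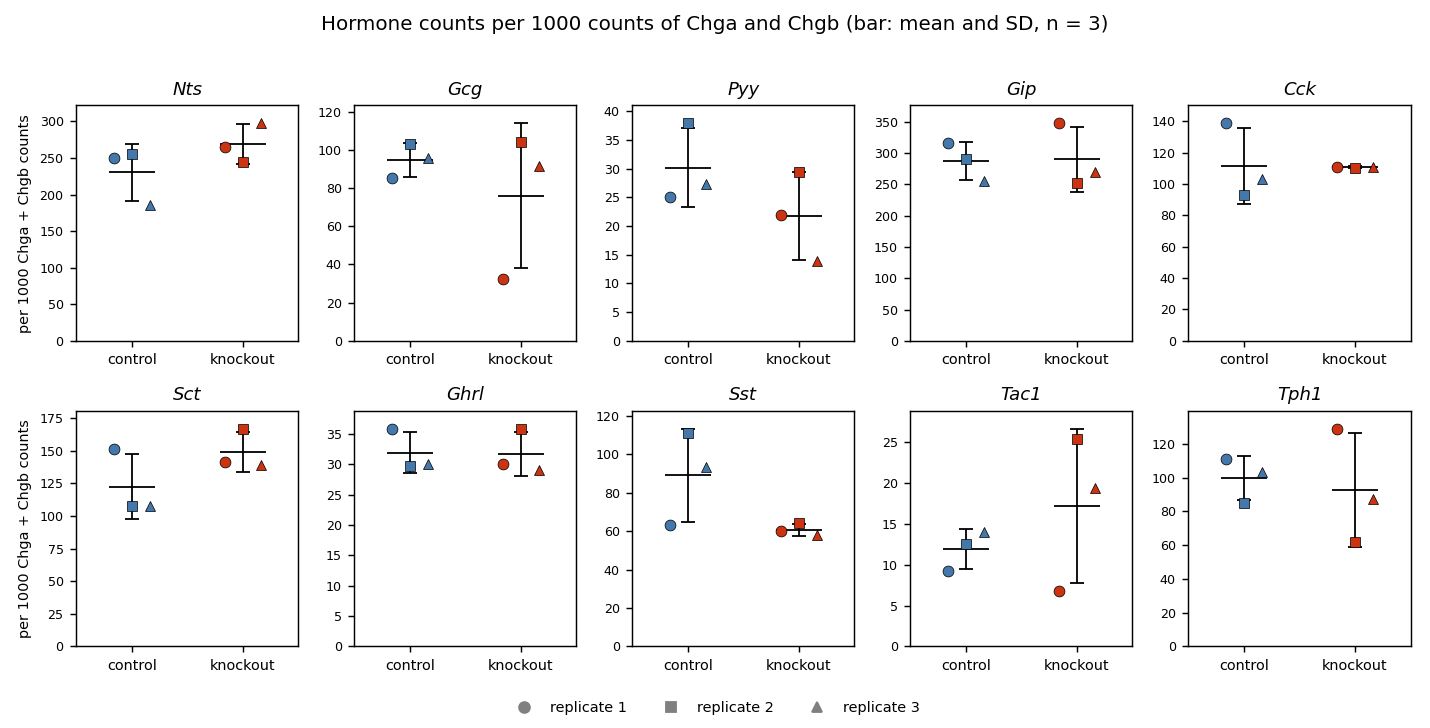
Counts of each gene per 1000 counts of Chga and Chgb (vertical axes, each from 0), with 1 point per library with its shape giving the replicate number, and the mean with SD as bars. The separation of Nts, Gip and Sct seen in CPM is not seen on this scale, and control replicates 2 and 3 stand above the knockouts for Sst, whose ratio of means is 0.682.

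The larger shares in the mix of peptide hormones differed little between the groups. Summed over 9 peptide hormones, the libraries held 158, 132 and 128 CPM in controls and 181, 255 and 200 CPM in knockouts, so each knockout had the larger sum. Gip made up 28.4% ± 0.846 (SD, n = 3) of the hormone counts in controls and 28.3% ± 5.27 in knockouts. Nts made up 22.8% ± 2.13 in controls and 26.2% ± 2.67 in knockouts, and Sct 12.1% ± 1.88 and 14.5% ± 1.48. The intervals of 1 SD around the means of the groups met for each of these 3 genes, and Gip had the largest mean share in both groups. Gcg made up 7.92%, 9.92% and 10.5% in controls and 3.21%, 10.1% and 8.89% in knockouts. Of the knockouts, replicate 1 alone lay outside the control range, its Wilson 95% interval being 2.68% to 3.84%. Sst made up 5.87%, 10.6% and 10.2% in controls and 5.89%, 6.22% and 5.64% in knockouts, where control replicate 1 matched the knockouts.

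Per kilobase of exon, the hormones kept nearly the same order in both groups. In controls the levels ran from Gip at 57.8 ± 8.57 CPM per kb (SD, n = 3) through Sct at 26.4 ± 7.15, Nts at 25.5 ± 4.32, Sst at 16.8 ± 3.51, Cck at 11.9 ± 3.39, Gcg at 8.72 ± 0.305, Pyy at 6.54 ± 0.978, Ghrl at 4.11 ± 0.709 and Tph1 at 2.25 ± 0.455 to Tac1 at 0.482 ± 0.0898. The ranges of neighbours overlapped for Sct with Nts and for Sst with Cck, and were apart for the rest. In knockouts Gip again led, at 85.7 ± 8.41 CPM per kb, and Tac1 was again last, at 1.10 ± 0.744. There the ranges of Sct and Nts, Sst and Cck, Cck and Gcg, Gcg and Pyy, and Pyy and Ghrl overlapped. Exon length was the union of all annotated exons of a gene, which overstates the length of a single transcript.

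**Figure D4:**
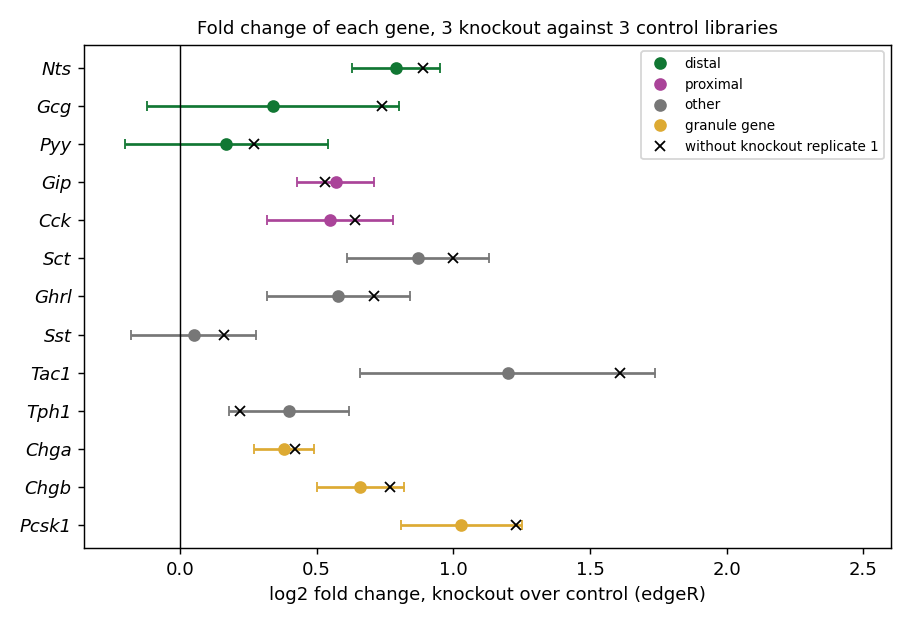
Log2 fold change of knockout over control from edgeR (horizontal axis) for the 10 genes and for Chga, Chgb and Pcsk1, as points with the SE as bars and the value without knockout replicate 1 as crosses. All points lie above 0, although Sst (0.05) turned below 0 with library totals, and the cross moves farthest from the point for Tac1 (1.20 to 1.61) and Gcg (0.34 to 0.74).

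Among genes of enteroendocrine fate, no tested transcription factor passed even an unadjusted p of 0.05 in the main edgeR fit. Several granule genes were higher in every knockout. Of 21 tested transcription factors (25 listed), 0 were higher and 0 lower at an unadjusted p below 0.05, against 9.32% and 7.09% of all genes. The median log2 fold change of the 21 was 0.02. St18 stood at 3.26, 2.54 and 2.97 CPM in controls and 2.58, 1.22 and 1.40 CPM in knockouts (edgeR adjusted p 0.312). Without knockout replicate 1 its log2 fold change was −1.15 (edgeR adjusted p 0.0243), where 1151 of 15470 genes were called lower. Egr3 had a log2 fold change of 1.02 (SE 0.50, edgeR adjusted p 0.359). Foxa1, the most abundant, stood at 12.4, 13.0 and 13.2 CPM in controls and 11.9, 15.9 and 14.5 CPM in knockouts, with knockouts on both sides of the controls. The median of this list was close to the 0.01 over all genes. Neurog3, the progenitor factor, named after its values were seen, was too low to be tested, at 0.196 ± 0.125 CPM (SD, n = 3) in controls and 0.352 ± 0.0449 CPM in knockouts.

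Of 23 tested granule and hormone processing genes, 4 were higher and 2 lower at an unadjusted p below 0.05, against 9.32% and 7.09% of all genes. In 7 every knockout exceeded every control and in 2 every knockout was below, against 10.0% and 11.7%. The 2 lower genes, named after their values were seen, were Cacna1a, a calcium channel subunit, with a log2 fold change of −0.83 (edgeR adjusted p 0.268), and Ptprn2, a granule membrane protein, with −0.46 (edgeR adjusted p 0.258). The median log2 fold change of the list was 0.34, and edgeR called 0, while DESeq2 called 2 higher. Pcsk1, the convertase that cuts prohormones into active peptides, stood at 16.5, 13.3 and 15.0 CPM in controls and 21.6, 39.2 and 30.8 CPM in knockouts. The groups did not overlap, and the log2 fold change was 1.03 (SE 0.22, edgeR adjusted p 0.121, DESeq2 adjusted p 0.00249, and up to 0.426 over the alternatives that kept at least 2 libraries in each group). Knockout replicate 2 was the highest library for Pcsk1, Chga and Chgb, as it was for 9 of the 10 hormone genes, Tph1 being the exception.

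Sensors of luminal nutrients, among them receptors for fatty acids, more often had log2 fold changes above 0 than below. Of 11 tested sensors (18 listed), 8 were above 0 and 3 below, with a median of 0.45, where 50.7% of all genes were above 0. At an unadjusted p below 0.05, 2 were higher and 0 lower, against 9.32% and 7.09% of all genes. Ffar4, a receptor for long-chain fatty acids, stood at 1.28, 0.792 and 1.30 CPM in controls and 1.21, 4.23 and 5.17 CPM in knockouts (edgeR adjusted p 0.207). Its pattern, low in knockout replicate 1 and high in the other 2, was that of Gcg and Tac1. Ffar1, a related receptor, stood at 1.45, 1.75 and 1.51 CPM in controls and 2.73, 2.70 and 2.20 CPM in knockouts, without overlap (edgeR adjusted p 0.219). Other related receptors did not follow. Ffar3 stood at 4.58, 3.54 and 4.48 CPM in controls and 4.50, 0.218 and 0.641 CPM in knockouts, with a log2 fold change of −1.26 (edgeR adjusted p 0.496) and of −3.26 without knockout replicate 1 (edgeR adjusted p 0.00362). Ffar2 had a log2 fold change of −0.04 (edgeR adjusted p 0.941), and both were named after their values were seen. Of 5 tested hormone receptors, Glp1r alone passed an unadjusted p of 0.05, at 1.63, 1.42 and 0.921 CPM in controls and 1.92, 3.75 and 1.92 CPM in knockouts (edgeR adjusted p 0.278). It was higher, as were 9.32% of all genes at that threshold. Of 8 enzymes that degrade peptides, 5 had log2 fold changes above 0 and 3 below, where 50.7% of all genes were above 0. At an unadjusted p below 0.05, 0 were higher, against 9.32% of all genes, and 1 was lower, against 7.09%. This was Mep1a, a subunit of the brush border protease meprin, which was lower in every knockout, at 370, 441 and 389 CPM in controls and 122, 178 and 244 CPM in knockouts (edgeR adjusted p 0.120, DESeq2 adjusted p 0.000957, and up to 0.426 over the alternatives that kept at least 2 libraries in each group). Its partner subunit Mep1b went the other way, at 1470, 1324 and 1393 CPM in controls and 1186, 2323 and 2199 CPM in knockouts, with a log2 fold change of 0.45 (edgeR adjusted p 0.423) and of 0.69 without knockout replicate 1 (edgeR adjusted p 0.0113). Of 4 tested genes for other gut peptides, Guca2b, which encodes uroguanylin, was lower in every knockout, at 525, 438 and 437 CPM in controls and 401, 358 and 288 CPM in knockouts (edgeR adjusted p 0.263). Over all genes, 11.7% were lower in every knockout than in any control.

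Across the 6 libraries, which share their group difference and the scaling of each library, 5 of the hormones followed one another closely. Pearson's r of log2(CPM + 0.1) lay between 0.82 and 0.98 for the 10 pairs of Nts, Gip, Cck, Sct and Ghrl, genes picked after their values were seen. Gcg had an r of 0.86 with Tac1, 0.30 with Nts and −0.02 with Gip. Tac1 in turn had an r of 0.75 with Ghrl, 0.68 with Sct, 0.64 with Nts, 0.60 with Cck and 0.39 with Gip. Pyy and Sst had an r of 0.74. For each of the 10 genes, the highest r was then sought among the 44 tested genes of the enteroendocrine lists. The highest of 44 values over 6 libraries tends to be high in any case, so these matches are a description only. Among those genes, Chga was the one most like Sct, with an r of 0.99, Cck (0.93) and Gip (0.93). It had an r of 0.93 with Nts, as did Pcsk1. Ghrl was most like Scg2 and Vgf, granule proteins, both with an r of 0.96. Tac1 and Gcg were most like Foxa1, with an r of 0.99 and 0.90. Pyy was most like Runx1t1 (0.80) and Isl1 (0.75), Sst like Rab3c (0.86) and Ica1 (0.82), and Tph1 like Pou2f2 (0.87) and Rimbp2 (0.76).

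Cells other than epithelium can also make some of these peptides. Of 16 markers of enteric neurons, which express Tac1 and Sst, 2 were tested, and the list summed to 6.71 to 9.20 CPM in controls and 8.89 to 10.5 CPM in knockouts. Nearly all of this was Chat and Ret, both also expressed in epithelial cells, and the other 14 summed to 0.660 to 1.30 CPM in controls and 0.915 to 1.42 CPM in knockouts. Gap43 was at 0 counts in every library and Elavl4 at 3 counts in all 6 together. Tubb3 was at 0 counts in every control and at 4, 6 and 7 counts in knockouts, and Stmn3 at 0 in every control and at 2, 2 and 1 counts in knockouts. Of 10 pancreas markers, which would matter for Gcg and Sst, Ins1 was at 0 counts and Ins2 at 1 count over all libraries. The list summed to 3.68 to 5.12 CPM in controls and to 5.56, 24.1 and 245 CPM in knockouts, and without Cela1 it was 0 in every control and in knockout replicate 1, 15.6 CPM in knockout replicate 2 and 205 CPM in knockout replicate 3. In the same order of knockouts, Gcg stood at 5.82, 25.8 and 17.7 CPM, Sst at 10.7, 15.9 and 11.3 CPM and Pyy at 3.90, 7.28 and 2.72 CPM. Of other cell types, T cell markers summed to 135 to 247 CPM in controls and 286 to 849 CPM in knockouts, and B and plasma cell markers to 94.2 to 191 CPM and 281 to 453 CPM. Smooth muscle and fibroblast markers summed to 6.73, 8.54 and 20.6 CPM in controls and 79.3, 13.9 and 83.0 CPM in knockouts, and macrophage and dendritic cell markers to 14.7 to 15.6 CPM and 30.5 to 40.4 CPM. Epithelial markers summed to 10153 to 10776 CPM in controls and 11324 to 12871 CPM in knockouts. The part of any of these in the hormone levels was not tested.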

How the data were processed

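RNA sequencing libraries of intestinal epithelium from 6 mice were compared by genotype, with groups and replicate numbers taken from the sample titles. The submitters' processing notes name STAR 2.5.0a, Trim Galore, FastQC, bcl2fastq 2.17 and build mm10. The counting tool, its strand setting and the annotation were not given in the sources used here. The labels name both poly-A selection and removal of ribosomal RNA. The deposited values are whole read counts for each gene, without normalization. Of 54446 identifiers, 97.8% were found in GENCODE mouse release 21, which supplied exon lengths.

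These counts were compared by genotype with edgeR 4.0.16 under R 4.3.3 (two-sided quasi-likelihood F test, trimmed-mean scaling, filter at a minimum count of 10, Benjamini-Hochberg adjustment over 15068 genes, threshold 0.05). DESeq2 1.42.0, limma-voom (3.58.1), other scalings and filters, a replicate block and leaving out each library were alternatives. A fit without the 3 libraries of mismatched Xist, which leaves 1 control against 2 knockouts, was added after seeing the data. CPM uses the scaled totals. Intervals cover 95% of counting error only. Libraries of the same number correlated in their deviations from the group means at 0.117, 0.119 and 0.149, all above 0.1, so the number was treated as a possible pairing, though no label says what it marks. Libraries within a group differed beyond sampling noise in every pair.

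The 10 genes and all lists were chosen with earlier results of these data known. Named from each list were the called genes, the 2 with the smallest unadjusted p and the most abundant, although not every such gene is reported here. The labels do not say whether animals shared a litter.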

Additional observations from a re-analysis of the deposited data

How the results depend on the processing

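The direction of the log2 fold change held for Nts, Gip, Cck, Sct, Ghrl, Tac1 and Tph1 under every alternative run. It turned for 3 genes. Without single libraries it ranged from −0.12 to 0.74 for Gcg and from −0.31 to 0.46 for Pyy, both lowest without knockout replicate 2. Sst ranged from −0.13 (without knockout replicate 2) to 0.17, with −0.09 without control replicate 1, and was −0.07 with library totals. Of the 10 genes, edgeR called 0, DESeq2 3 and the unfiltered fit 1, and leaving out single libraries gave 0 to 5. At an unadjusted p below 0.05 the number of higher genes was 4, but 3 to 7 without single libraries. Genes without overlap numbered 4, but 3 with library totals and 4 to 7 without single libraries. Among enteroendocrine fate and granule genes, 0 were called, but DESeq2 called 2 higher and the unfiltered fit 1 higher, and leaving out single libraries gave 0 to 4 higher and 0 to 4 lower.

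Over all genes, the 8 higher and 1 lower calls became 542 and 294 with DESeq2 and 196 and 88 without a filter. Limma-voom called 4 higher, library totals gave 5 lower, and leaving out single libraries gave 0 to 1549 higher and 0 to 1151 lower. With the replicate block, 0 were called higher and 0 lower. The block moved no other count by more than 1.5 times. Leaving out the 3 libraries of mismatched Xist left 1 control, assumed to vary like the knockouts, against 2 knockouts. That fit called 0 genes higher and 0 lower, with 0 of the 10 genes at an unadjusted p below 0.05, and with so few libraries this says nothing about stability.

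The log2 ratio to Chga and Chgb turned in 5 genes. With the whole granule list as denominator it was 0.08 for Gcg, 0.27 for Cck, 0.29 for Ghrl and 0.12 for Tph1, and it moved to 0.51 for Nts, 0.27 for Gip and 0.59 for Sct. Without single libraries it ranged from −0.61 to 0.05 for Gcg, from −0.14 to 0.10 for Gip, from −0.11 to 0.08 for Ghrl, from −0.42 to 0.11 for Tph1, and up to 0.18 for Cck. These causes were not tested. Depth limits Tac1 and Pyy most, with 24 to 167 counts per library.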

Other observations

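Other genes, chosen after their values were seen, touch on the handling of hormones and on gut segment. Slc6a4, the transporter that clears serotonin into enterocytes, stood at 89.3, 123 and 96.7 CPM in controls and 89.5, 71.7 and 65.4 CPM in knockouts, with overlap through knockout replicate 1 (edgeR adjusted p 0.261). Slc40a1, the iron exporter typical of duodenum, stood at 3.04, 2.08 and 25.5 CPM in controls and 5.97, 382 and 409 CPM in knockouts (edgeR adjusted p 0.222). Fabp6, the bile acid binding protein typical of ileum, stood at 52.7, 232 and 188 CPM in controls and 84.2, 312 and 818 CPM in knockouts (edgeR adjusted p 0.439). Knockout replicates 2 and 3 thus had the highest levels of both the duodenal and the ileal gene.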
